A study of Mus musculus with 39 samples.

Results

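The Toll-like receptors are pattern recognition receptors of innate immune cells, and the 10 genes Tlr1, Tlr2, Tlr3, Tlr4, Tlr5, Tlr6, Tlr7, Tlr8, Tlr9 and Tlr13 were followed in microglial RNA-seq libraries from female and male mice. The members were picked out by gene symbol, and all 10 were found among the 46333 genes of the female table and among the 54532 genes of the male table. In 5XFAD microglia of both sexes, Tlr2 was higher than in WT microglia under normoxia (NX) and under chronic intermittent hypoxia (CIH), with fitted folds of 2.02 to 2.59. Tlr6 was lower in 5XFAD in all 4 of these comparisons, and Tlr5 had lower values in all 4 and passed the test in 3. Between CIH and NX, 2 of the 10 members passed the FDR, Tlr4 and Tlr7, both higher with CIH in WT males, where 28.6% of all genes passed. Neither passed with all 4 male groups in one fit.

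Toll-like receptors sense microbial molecules and molecules released by damaged cells through a leucine-rich repeat domain and signal through an intracellular TIR domain. Tlr1, Tlr2, Tlr4, Tlr5 and Tlr6 act at the cell surface, where Tlr2 pairs with Tlr1 or Tlr6 to bind lipoproteins, Tlr4 binds lipopolysaccharide with Ly96 (MD-2) and Cd14, and Tlr5 binds flagellin. Tlr3, Tlr7, Tlr8, Tlr9 and Tlr13 are endosomal sensors of nucleic acids that are delivered to endosomes by Unc93b1. Most of these receptors signal through the adaptor Myd88 to NF-κB, while Tlr3 uses Ticam1 (TRIF). Microglia, the resident macrophages of the brain, are known to express many of them, and Tlr2 and Tlr4 have been studied as receptors that can respond to amyloid-β.

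The mice came from crosses of C57BL/6J females with 5XFAD males of a B6SJL transgenic stock, and the 5XFAD mice carry transgenes with familial Alzheimer's disease mutations that are expressed in neurons and lead to amyloid plaques. From 4 months of age, mice breathed room air at 21% oxygen (NX) or air that alternated between 21% and a low level every 90 s (CIH). The design text of the series gives 6.5% as the low level and 8 h as the length of exposure during sleep, and the methods of the study state other values for both. Females were taken at 10 months and males at 8 months, so sex and age cannot be told apart, and no test between the sexes was made. CD11b+ cells were isolated with magnetic beads from the cerebrum, which is the only basis of the label microglia and which would also retain other myeloid cells. Both genotypes were kept under NX and under CIH, which gives 4 groups per sex with 5 libraries each, except 4 in female WT NX.

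The female libraries held from 14731683 to 25906121 counts in total, the male ones from 13457293 to 23095627. Levels below are CPM, that is counts relative to the TMM-scaled library size, listed in the order of the library numbers. All 7 microglial markers checked (P2ry12, Tmem119, Cx3cr1, Sall1, Siglech, Csf1r and Itgam) were detected in every group, with summed levels of 15676 to 28462 CPM. Some libraries stood apart. Female 5XFAD NX 4 had a summed level of 8 disease-associated microglia (DAM) markers (Cst7, Apoe, Lpl, Itgax, Clec7a, Spp1, Axl and Gpnmb) of 1001 CPM, against 18740 to 40288 CPM in the other 4 libraries of its group, and it lay with the WT libraries on the first principal component. It also had 38551 genes with a count, against 21697 to 22148 in the rest of its group, and the highest TMM factor of the female libraries (1.27). Relative to the mean of the female libraries, its log2 CPM rose with log2 transcript length (slope 0.163, against −0.055 to 0.0004 in the rest of its group). Male 5XFAD NX 4 and 5 lay at −72.5 and −73.1 on the second component of the male libraries, while the other 3 of their group lay between 15.2 and 26.1. Female WT NX 1 had a summed level of 6 monocyte markers of 493 CPM, against 38.3 to 63.6 CPM in the other 3 libraries of its group.

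Per length, the levels of the members spanned a wide range within a library. In WT NX females, Tlr7 was highest with 95.9 ± 6.1 CPM per kb of transcript (SD, n = 4), followed by Tlr13 with 62.9 ± 5.0, Tlr2 with 51.8 ± 6.0 and Tlr9 with 43.4 ± 6.3 CPM per kb. The ranges of Tlr13 and Tlr2 overlapped, as did those of Tlr2 and Tlr9, so these neighbours could not be ordered. Tlr3 (28.4 ± 1.3 CPM per kb) and Tlr1 (28.1 ± 4.8) overlapped as well, and so did Tlr4 (20.4 ± 1.6) and Tlr6 (18.3 ± 0.97). Tlr5 (10.7 ± 1.7) and Tlr8 (2.30 ± 0.97) were the lowest, and each lay below the next higher gene in all 4 libraries. In WT NX males, Tlr7 and Tlr13 were at 60.6 ± 3.7 and 60.5 ± 5.9 CPM per kb (SD, n = 5) and Tlr8, again the lowest, at 0.631 ± 0.46. The ranges of neighbours overlapped there from Tlr7 through Tlr13, Tlr2 and Tlr9 to Tlr1. The lengths used differ between the female and male tables, so levels per length are not compared between them. In 5XFAD NX, Tlr2 had the highest mean, with 126.8 ± 47 CPM per kb in females and 98.5 ± 6.0 in males. Its range overlapped that of Tlr7 in both sexes, so Tlr2 and Tlr7 could not be ordered there.

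**Figure D1:**
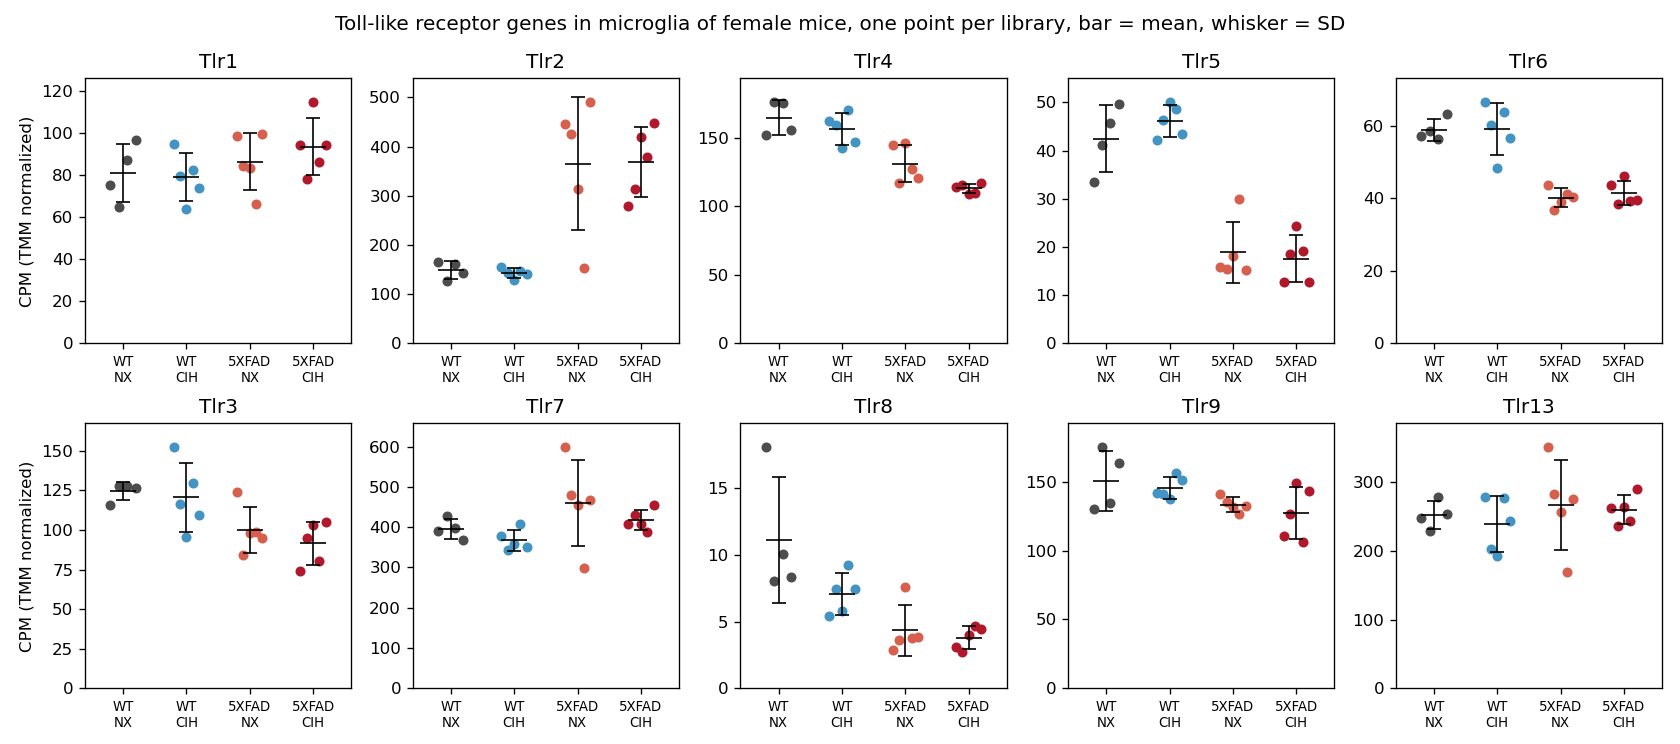
CPM (TMM normalized) of the 10 Toll-like receptor genes in microglia of female mice, with 1 point per library, a bar for the group mean and whiskers for the SD. Tlr2 reached 280 to 449 CPM in 5XFAD CIH against 128 to 155 CPM in WT CIH, while Tlr5, Tlr6 and Tlr8 lay lower in 5XFAD, and 1 library of 5XFAD NX lay with WT for Tlr2.

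Tlr2, the shared partner of the receptors for lipoproteins, was the member that rose with the 5XFAD genotype in both sexes under NX and under CIH. The gene lies on the minus strand of chromosome 3 (GRCm38, 83836272 to 83841767), with its whole coding sequence of 2352 bases in 1 exon. In WT NX females, it had 165, 127, 161 and 144 CPM, and in 5XFAD NX females 445, 427, 313, 153 and 489.7 CPM. The fourth 5XFAD library lay inside the WT range, and the other 4 were all above it. The difference passed the test (log2FC = 1.30, SE = 0.26, FDR = 0.0207, edgeR's quasi-likelihood F test with Benjamini-Hochberg adjustment over all genes tested). The NX female call of Tlr2 held in 3 of 9 fits without 1 library (without WT NX 1, 5XFAD NX 3 or 5XFAD NX 4, the last with log2FC = 1.47 and FDR = 4.2e-05), and in the other 6 the FDR was 0.0529 to 0.0687.

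In CIH females, the WT libraries had 155, 142, 128, 147 and 141 CPM and the 5XFAD libraries 279.8, 314, 421, 379 and 449 CPM. The groups did not overlap, and Tlr2 rose in 5XFAD (log2FC = 1.37, SE = 0.11, FDR = 4.05e-07). In males under NX, WT libraries had 146, 122, 172, 154 and 147 CPM and 5XFAD libraries 268, 316, 298, 294 and 308 CPM. In males under CIH, WT libraries had 125, 142, 137, 137 and 143 CPM and 5XFAD libraries 325, 254, 304, 255 and 322 CPM. Again no 5XFAD library reached down to the WT range, and Tlr2 rose under NX (log2FC = 1.02, SE = 0.11, FDR = 3.42e-05) and under CIH (log2FC = 1.12, SE = 0.10, FDR = 3.93e-07). The male NX value lay close to the log2FC limit of 1, and it fell below that limit when WT NX 2 (Tlr2 log2FC = 0.96, FDR = 0.000149) or 5XFAD NX 2 (0.99, FDR = 0.000158) was left out, and with library size alone as the scale (0.83). With that scale the CIH male value of Tlr2 also fell below the limit (log2FC = 0.74, FDR = 2.34e-05).

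The Tlr2 promoter is shown because Tlr2 was the only member called higher in 5XFAD in all 4 genotype comparisons, and the Tlr5 and Tlr8 promoters because these genes had the lowest log2FC of the members in them. RefSeq promoter windows (GRCm38.p6) were found for 8 of the 10 members, not for Tlr4 and Tlr7. The bases below lie upstream of the annotated gene, read 5′ to 3′ on the gene's strand, and capitals mark matches to the motifs searched.
Tlr2, minus strand, chr3:83841768-83841858: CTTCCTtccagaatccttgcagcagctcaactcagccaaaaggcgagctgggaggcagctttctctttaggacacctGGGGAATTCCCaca
Tlr5, plus strand, chr1:182954538-182954787: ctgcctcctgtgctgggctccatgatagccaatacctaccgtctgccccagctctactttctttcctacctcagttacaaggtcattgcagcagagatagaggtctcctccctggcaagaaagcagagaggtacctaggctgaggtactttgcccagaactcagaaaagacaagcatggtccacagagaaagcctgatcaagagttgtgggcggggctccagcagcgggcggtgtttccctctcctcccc
Tlr8, minus strand, chrX:167264330-167264579: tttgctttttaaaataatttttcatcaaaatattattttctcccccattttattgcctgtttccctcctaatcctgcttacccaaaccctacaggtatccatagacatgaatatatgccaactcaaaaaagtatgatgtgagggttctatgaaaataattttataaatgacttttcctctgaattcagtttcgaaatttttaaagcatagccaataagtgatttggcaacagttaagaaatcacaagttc

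Both strands of the 250 bases before each RefSeq start were searched for the NF-κB motif, the interferon-stimulated response element (GAAANNGAAA), a PU.1 core (AGGAAG), AP-1 (TGANTCA) and the core of the hypoxia response element (ACGTG). Tlr2 had 2 NF-κB matches that overlap each other and 1 PU.1 match. No match to any of the 5 motifs was found in the windows of Tlr5 and Tlr8. NF-κB matches were found in 7.25% of all 32851 promoter windows, PU.1 matches in 29.5%, hypoxia response element cores in 16.6%, AP-1 matches in 6.75% and interferon-stimulated response elements in 2.98%. Among the other members, an NF-κB match was found for Tlr3, PU.1 matches for Tlr1, Tlr6, Tlr9 and Tlr13, an AP-1 match for Tlr9, response element matches for Tlr6 (interferon) and Tlr1 (hypoxia, at the second of its 2 starts). These matches describe the letters in the windows.

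**Figure D2:**
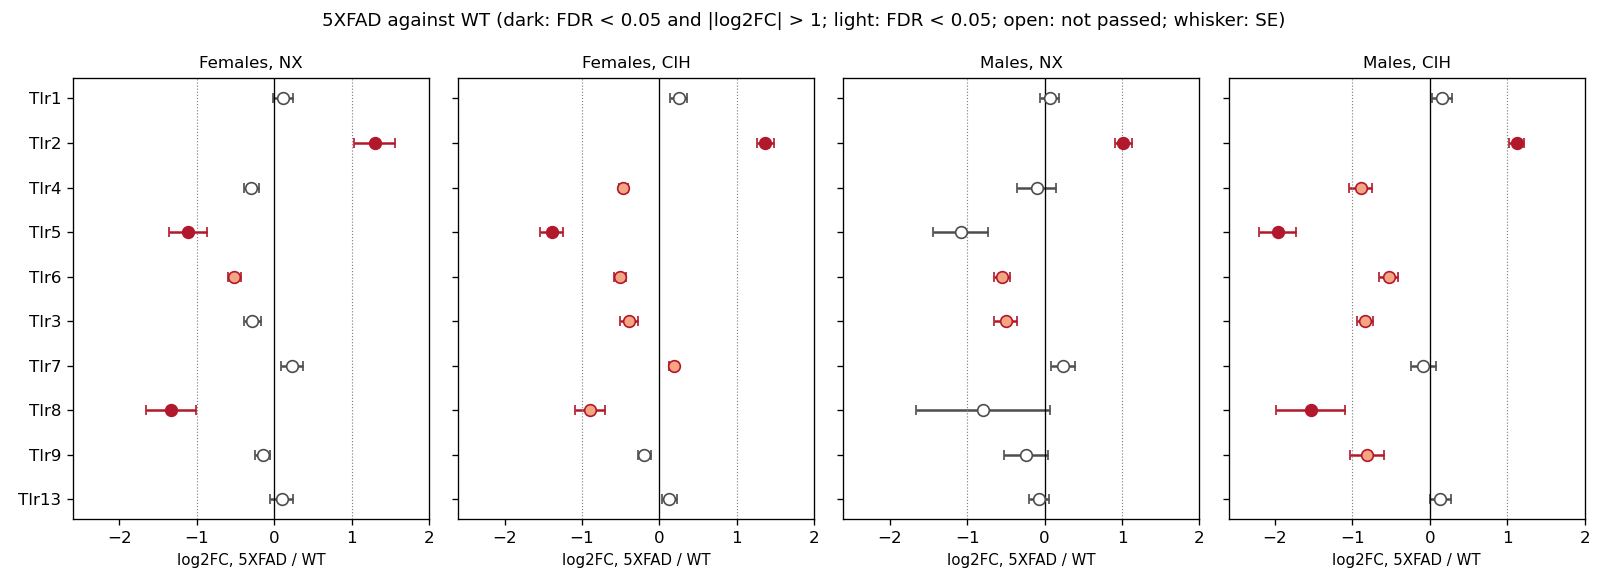
Log2 fold change of each Toll-like receptor gene between 5XFAD and WT (positive: higher in 5XFAD) by sex and treatment, with SE as whiskers. Dark points passed an FDR of 0.05 and a log2FC of 1, light points passed the FDR alone and open points did not pass, so that Tlr2 stands on the right in all 4 panels and Tlr5 on the left.

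A DEG was a gene with an FDR below 0.05 and an absolute log2FC above 1. In WT NX vs 5XFAD NX females, 3 of the 10 members were DEGs (Tlr2, Tlr5 and Tlr8), where 5.99% of all 14513 genes tested were, and 4 passed the FDR alone, against 13.9% of all genes. In WT CIH vs 5XFAD CIH females, 2 were DEGs (Tlr2 and Tlr5), against 13%, and 7 passed the FDR alone, against 51.9%. In males, 1 member was a DEG under NX (Tlr2), against 8.25% of all genes, and 3 passed the FDR alone, against 17.8%. Under CIH, 3 were DEGs in males (Tlr2, Tlr5 and Tlr8), against 18.7%, and 7 passed the FDR alone, against 49.0%. The median log2FC of the 10 members was −0.22 and −0.29 in females (NX and CIH) and −0.17 and −0.67 in males, while that of all genes tested was between −0.06 and 0.02. In CIH males the log2FC of all genes moved with transcript length, from a median of 0.36 in the shortest of 5 length classes to −0.30 in the longest, and with this trend removed 7 members again passed the FDR. Without female 5XFAD NX 4, the count of DEGs in NX females was 3 again, and 7 members passed the FDR alone. The NX female calls had FDR values not far under the limit, and the number of DEGs was 0 when any of 6 other libraries was left out (WT NX 2, 3 or 4 and 5XFAD NX 1, 2 or 5). Without male 5XFAD NX 4 and 5, an alternative chosen after they were seen to stand apart, the count in NX males was 3 DEGs and 7 past the FDR alone.

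Tlr5, the flagellin receptor on chromosome 1 (plus strand, 182954788 to 182976044), had the largest fall of the surface receptors. WT NX females had 33.4, 41.1, 45.8 and 49.6 CPM and 5XFAD NX females 15.9, 15.4, 18.1, 30.0 and 15.2 CPM. All 5XFAD libraries lay below all WT libraries, and the one nearest to WT was again 5XFAD NX 4. Tlr5 fell under NX (log2FC = −1.11, SE = 0.25, FDR = 0.0262), a call that was lost when any library but WT NX 1 or 5XFAD NX 4 was left out (Tlr5 FDR = 0.0629 to 0.0802). WT CIH females had 42.2, 46.3, 50.0, 48.7 and 43.4 CPM and 5XFAD CIH females 12.8, 18.6, 24.4, 19.2 and 12.7 CPM, again without overlap, and Tlr5 fell (log2FC = −1.39, SE = 0.15, FDR = 5.79e-06).

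In males, Tlr5 had 27.1, 21.0, 22.0, 12.5 and 14.2 CPM in WT NX and 6.26, 3.88, 6.32, 15.9 and 12.8 CPM in 5XFAD NX. The 5XFAD libraries 4 and 5 reached into the WT range, the other 3 were below it, and the difference did not pass (log2FC = −1.09, SE = 0.36, FDR = 0.0526). DESeq2 (Tlr5 FDR = 0.0213) and the fit without male 5XFAD NX 4 and 5 (log2FC = −1.81, FDR = 0.00018) put Tlr5 past the threshold. Under CIH, Tlr5 had 31.4, 27.8, 25.9, 23.4 and 16.1 CPM in WT and 7.24, 6.14, 7.52, 7.49 and 2.76 CPM in 5XFAD males. Here the groups were apart, and Tlr5 fell by 1.97 on the log2 scale (SE = 0.24, FDR = 1.49e-05), the largest fall of any member.

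Tlr6, which forms the receptor for diacylated lipoproteins with Tlr2, was lower in 5XFAD in all 4 comparisons by a like amount. It lies on chromosome 5 (minus strand, 64952031 to 64960097), 18467 bases from its neighbour and close relative Tlr1 (64924679 to 64933563). How reads that match both genes were counted is not given in the sources used here. Female NX libraries had 57.0, 58.5, 56.3 and 63.3 CPM in WT and 43.6, 36.7, 39.0, 41.2 and 40.4 CPM in 5XFAD. Male NX libraries had 61.5, 53.2, 61.2, 60.2 and 52.8 CPM in WT and 34.1, 36.2, 40.2, 42.4 and 42.5 CPM in 5XFAD. The groups were apart in both, as they were under CIH. Tlr6 fell in NX females (log2FC = −0.52, FDR = 0.0162), CIH females (−0.51, FDR = 0.000167), NX males (−0.55, FDR = 0.00379) and CIH males (−0.53, FDR = 0.00231), with SE of 0.08 to 0.12. The NX female call of Tlr6 was lost without WT NX 3 (FDR = 0.0593) or WT NX 4 (FDR = 0.0504). Tlr1, which pairs with Tlr2 for triacylated lipoproteins, passed in no comparison, and its genotype log2FC lay between 0.06 and 0.25. Its libraries had 59.4 to 115 CPM over both sexes.

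Tlr4, the lipopolysaccharide receptor on chromosome 4 (plus strand, 66827584 to 66930284), was lower in 5XFAD under CIH in both sexes. CIH females had 162, 159, 142, 170.5 and 147 CPM in WT and 114, 116, 109, 110.0 and 117 CPM in 5XFAD, and the 5XFAD libraries were all lower (log2FC = −0.46, SE = 0.05, FDR = 9.94e-06). CIH males had 75.1, 91.7, 122, 100.3 and 93.1 CPM in WT and 64.4, 56.2, 46.5, 48.7 and 37.6 CPM in 5XFAD, again without overlap (log2FC = −0.89, SE = 0.15, FDR = 0.000201). Under NX, female libraries had 152, 176, 175 and 155 CPM in WT and 145, 117, 146, 127 and 121 CPM in 5XFAD. These did not overlap but missed the FDR limit (log2FC = −0.30, FDR = 0.0629), and passed it without female 5XFAD NX 4 (−0.33, FDR = 0.0167). NX males had 69.4, 57.8, 46.6, 58.5 and 43.9 CPM in WT and 34.6, 34.7, 37.0, 70.6 and 78.2 CPM in 5XFAD, where 5XFAD NX 4 and 5 were the highest of the 10 libraries (log2FC = −0.10, SE = 0.25, FDR = 0.84). Without them, the other 3 lay below all WT libraries (log2FC = −0.63, FDR = 0.00473).

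**Figure D3:**
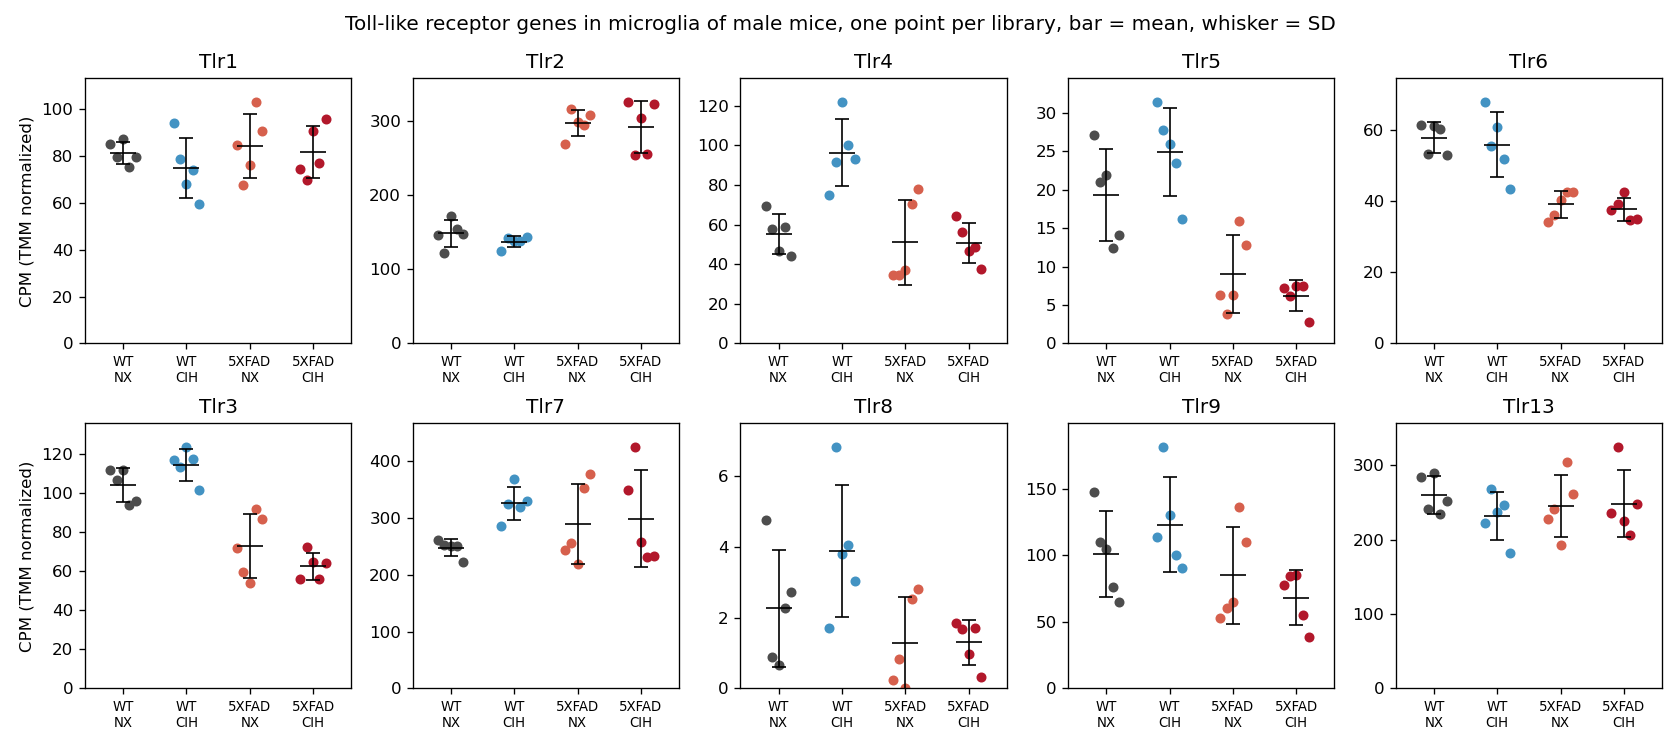
CPM (TMM normalized) of the 10 Toll-like receptor genes in microglia of male mice, with 1 point per library, a bar for the group mean and whiskers for the SD. Tlr4 and Tlr7 were higher in all 5 WT CIH libraries than in the 5 WT NX libraries, and libraries 4 and 5 of 5XFAD NX lay above the other 3 for 9 of the 10 genes, all but Tlr2.

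Among the endosomal receptors, Tlr8 and Tlr3 were lower in 5XFAD, and the genotype log2FC of Tlr7 and Tlr13 lay between −0.09 and 0.24. Tlr8, a sensor of single-stranded RNA next to Tlr7 on the X chromosome (minus strand, 167242696 to 167264329, 40599 bases from Tlr7), was the lowest member, with 49 to 478 counts in the libraries of females and 0 to 136 in those of males. WT NX females had 18.0, 7.99, 10.0 and 8.36 CPM and 5XFAD NX females 2.84, 3.65, 7.61, 3.74 and 3.82 CPM. All 5XFAD libraries were below all WT libraries, and Tlr8 fell (log2FC = −1.33, SE = 0.33, FDR = 0.0333). The highest WT value was that of WT NX 1, the library with the raised monocyte markers, and without it Tlr8 did not pass (log2FC = −1.0, FDR = 0.0685). The Tlr8 call was also lost when WT NX 2, 3 or 4 or 5XFAD NX 1, 2 or 5 was left out, with FDR values of 0.0571 to 0.0857. CIH females had 5.39, 7.42, 5.76, 9.25 and 7.43 CPM in WT and 3.10, 2.73, 3.96, 4.70 and 4.46 CPM in 5XFAD, and Tlr8 fell (log2FC = −0.90, SE = 0.19, FDR = 0.00178).

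In males, Tlr8 had 1.71, 6.82, 3.81, 4.06 and 3.05 CPM in WT CIH and 1.85, 1.67, 0.967, 1.70 and 0.321 CPM in 5XFAD CIH. Only the first WT library reached the 5XFAD range, and Tlr8 fell (log2FC = −1.54, SE = 0.45, FDR = 0.0109), a call that was lost with all 4 groups in one fit (FDR = 0.0821). Under NX, it had 4.76, 0.886, 0.656, 2.29 and 2.72 CPM in WT and 0.248, 0.838, 0, 2.52 and 2.82 CPM in 5XFAD, where library 3 had 0 of 15328694 counts, which allows up to 0.231 CPM. These groups overlapped, with 5XFAD NX 4 and 5 above the other 3 libraries (log2FC = −0.80, SE = 0.87, FDR = 0.611). Without these 2 libraries, Tlr8 had a log2FC of −2.61 (FDR = 0.0469).

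Tlr3, the sensor of double-stranded RNA on chromosome 8 (minus strand, 45395665 to 45411080), had lower values in 5XFAD in all 4 comparisons and passed in 3. NX males had 112, 107, 112, 94.0 and 96.1 CPM in WT and 71.8, 59.7, 54.1, 91.9 and 86.7 CPM in 5XFAD, and CIH males 117, 113, 123, 117 and 102 CPM in WT and 55.9, 72.4, 64.9, 55.9 and 64.1 CPM in 5XFAD. The groups were apart in both, and Tlr3 fell under NX (log2FC = −0.50, FDR = 0.0358) and under CIH (−0.84, FDR = 9.87e-06). The NX male call of Tlr3 held in 3 of the 10 fits that left out 1 library (without WT NX 4, 5XFAD NX 4 or 5XFAD NX 5), and in the other 7 the FDR was 0.0523 to 0.087. In females, Tlr3 fell under CIH (−0.40, FDR = 0.0105), and its NX value was −0.28 (FDR = 0.0978). An annotated antisense gene, Gm45542, overlaps Tlr3, and whether reads were counted by strand is not given in the sources used here.

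Tlr9, the sensor of unmethylated CpG DNA on chromosome 9 (plus strand, 106222598 to 106226883), fell in CIH males. It had 114, 181, 131, 100.2 and 90.4 CPM in WT and 77.5, 84.6, 85.2, 55.0 and 39.0 CPM in 5XFAD, without overlap (log2FC = −0.81, SE = 0.22, FDR = 0.00692). In the other 3 genotype comparisons the log2FC of Tlr9 was −0.15 to −0.24 and did not pass. In NX males it passed without 5XFAD NX 4 and 5 (−0.76, FDR = 0.0129). Tlr13, a sensor of bacterial ribosomal RNA on the X chromosome (plus strand, 106143204 to 106160493), passed in none, with log2FC of −0.07 to 0.14. Tlr7 (X chromosome, minus strand, 167304929 to 167330558), another sensor of single-stranded RNA, had 377, 344, 358, 408 and 351 CPM in WT CIH females and 408, 430.2, 408, 388 and 455 CPM in 5XFAD CIH females. These values overlapped, and Tlr7 passed the FDR with a log2FC of 0.19 (SE = 0.06, FDR = 0.0143), a direction that turned when counts were scaled by library size alone (−0.0073). Scaling by library size alone moved the median log2FC of all genes by −0.19 in that comparison, and by −0.15, −0.19 and −0.38 in NX females, NX males and CIH males. Tlr7 did not pass in the other genotype comparisons, with log2FC of 0.23 in NX females, 0.24 in NX males and −0.09 in CIH males. Without female 5XFAD NX 4, it passed in NX females (log2FC = 0.32, FDR = 0.0195).

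The second question of the design was the effect of CIH within a genotype. In WT males, CIH was accompanied by higher Tlr4 and Tlr7, and in WT females, 5XFAD females and 5XFAD males no member passed. Tlr4 had 69.4, 57.8, 46.6, 58.5 and 43.9 CPM in WT NX males and 75.1, 91.7, 122, 100.3 and 93.1 CPM in WT CIH males, so that all CIH libraries lay above all NX libraries and Tlr4 rose (log2FC = 0.79, SE = 0.14, FDR = 0.000918). Tlr7 had 261, 252, 251, 251 and 222 CPM in WT NX males and 286, 323, 368, 319 and 329.5 CPM in WT CIH males. It rose as well, again without overlap (log2FC = 0.38, SE = 0.08, FDR = 0.00372). Neither reached a log2FC of 1, so 0 of the 10 members were DEGs, against 2.51% of all 14983 genes tested, and 2 passed the FDR alone, against 28.6%.

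The other 8 members had log2FC of −0.18 (Tlr13) to 0.77 (Tlr8) in WT males and did not pass. Neither Tlr4 (FDR = 0.057) nor Tlr7 (FDR = 0.132) passed when all 4 male groups were fitted together, with unchanged log2FC of 0.79 and 0.38. In this comparison too the log2FC of all genes moved with transcript length, from a median of −0.36 in the shortest of 5 equal length classes to 0.25 in the longest. Tlr7 (4082 bases) belongs to class 3, with a median of −0.03, and Tlr4 (5556 bases) to class 4, with a median of 0.09. With the length trend of each library removed, an alternative chosen after this was seen, Tlr4 had a log2FC of 0.71 (FDR = 0.0031) and Tlr7 of 0.40 (FDR = 0.00454). Summed neutrophil markers were 232 to 1235 CPM in WT NX males and 110.0 to 328 CPM in WT CIH males. By the FDR alone, which 28.6% of all genes passed, 6 of 8 neutrophil markers were lower in WT CIH. So were 3 of 6 monocyte, 3 of 7 border macrophage, 3 of 8 DAM, 2 of 7 microglial and 1 of 5 B cell markers. In the other direction, 1 of 6 astrocyte markers (Slc1a2, log2FC = 1.47, FDR = 0.0434) was higher. The DAM sums were 1587 to 3362 CPM in WT NX and 1416 to 1582 CPM in WT CIH males. Their part in these differences was not tested.

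**Figure D4:**
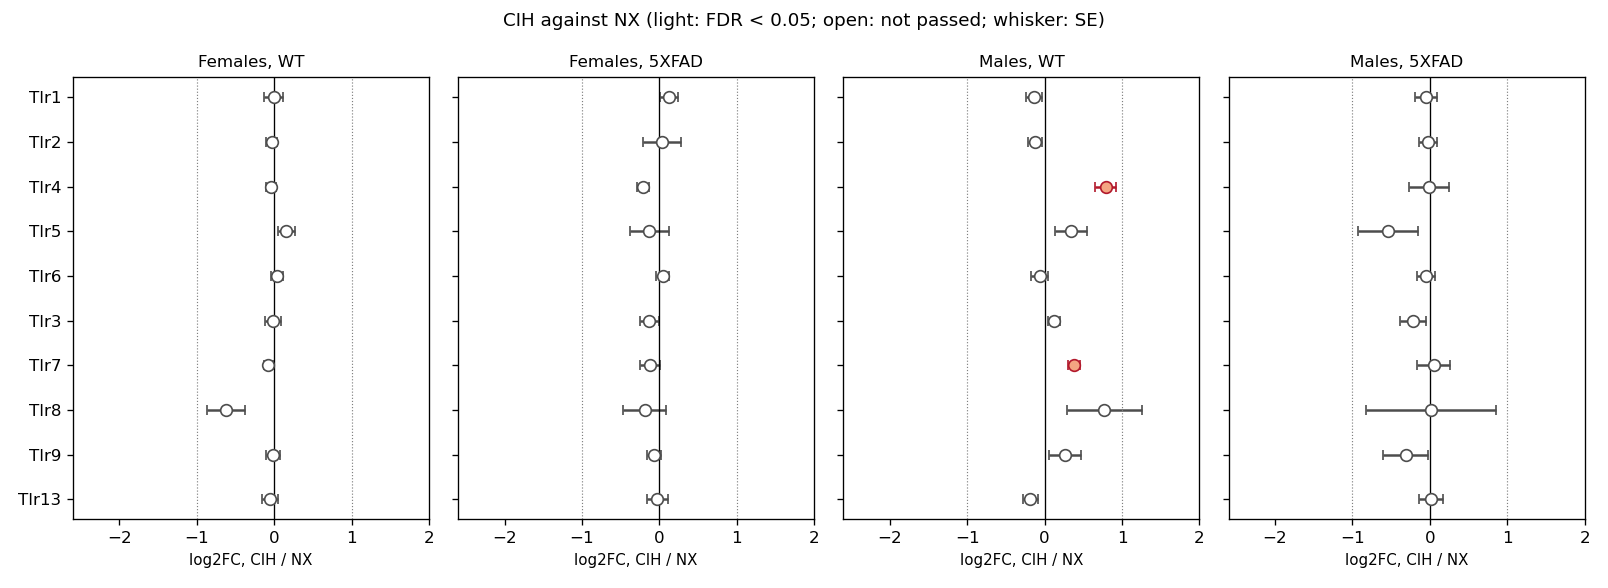
Log2 fold change of each Toll-like receptor gene between CIH and NX (positive: higher in CIH) by sex and genotype, with SE as whiskers. Tlr4 and Tlr7 passed an FDR of 0.05 in WT males (light points), and all other points are open.

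In WT females, the log2FC between CIH and NX ranged from −0.63 (Tlr8) to 0.16 (Tlr5), and 0 members passed in edgeR, DESeq2 or limma, where 0.00% of all genes tested passed in edgeR. Tlr8 alone had an unadjusted p below 0.05, as 3.87% of all genes did, and its log2FC was −0.29 without WT NX 1. Tlr4 and Tlr7 had log2FC of −0.04 (95% interval −0.17 to 0.09) and −0.07 (−0.19 to 0.04) in these females. In 5XFAD females, the values ranged from −0.21 (Tlr4) to 0.12 (Tlr1), with 0 members past the FDR in any of the 3 tools, 1 with an unadjusted p below 0.05 (3.22% of all genes) and again 0.00% of all genes past the FDR. The Tlr4 values were 145, 117, 146, 127 and 121 CPM in 5XFAD NX and 114, 116, 109, 110.0 and 117 CPM in 5XFAD CIH females, which did not overlap (log2FC = −0.21, SE = 0.08, FDR = 0.998 in edgeR). Tlr2 did not differ detectably with CIH in 5XFAD females (log2FC = 0.03, 95% interval −0.46 to 0.52) or in 5XFAD males (−0.03, −0.25 to 0.20).

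In 5XFAD males, the log2FC between CIH and NX ranged from −0.54 (Tlr5) to 0.05 (Tlr7), and 0 members passed in the 3 tools, with 0 at an unadjusted p below 0.05 (3.30% of all genes) and 0.00% of all genes called. The spread within these groups was wide. Tlr7 had 243, 255, 219, 352 and 377 CPM in 5XFAD NX and 348, 423, 258, 231 and 233 CPM in 5XFAD CIH males, with 2 high libraries in each group. Tlr4 in 5XFAD NX males was also high in libraries 4 and 5, and in 5XFAD CIH it was highest in libraries 1 and 2, the same 2 that were high for Tlr7. Without 5XFAD NX 4 and 5, the log2FC of Tlr4 was 0.53 (FDR = 0.495) and that of Tlr7 0.33 (FDR = 0.64).

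The interaction of genotype and treatment asks whether the CIH difference was another in 5XFAD than in WT mice. No member passed in either sex, in edgeR, DESeq2 or limma, and 0.00% of all genes did in edgeR. In males, the lowest p was that of Tlr4 (log2FC = −0.80, SE = 0.31, FDR = 0.136 in edgeR), in a comparison where the length classes ran from a median of 0.42 to −0.37, and 1 member had an unadjusted p below 0.05, where 24.4% of all genes had one. Without male 5XFAD NX 4 and 5, the interaction of Tlr4 was −0.28 (FDR = 0.701). With no filter on low counts, its FDR was 0.0124. In females, no member had an unadjusted p below 0.05 (3.78% of all genes), and the values lay between −0.29 (Tlr5) and 0.43 (Tlr8). The CIH rise of Tlr4 in WT males and its absence among the calls in 5XFAD males are therefore not shown to differ.

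**Figure D5:**
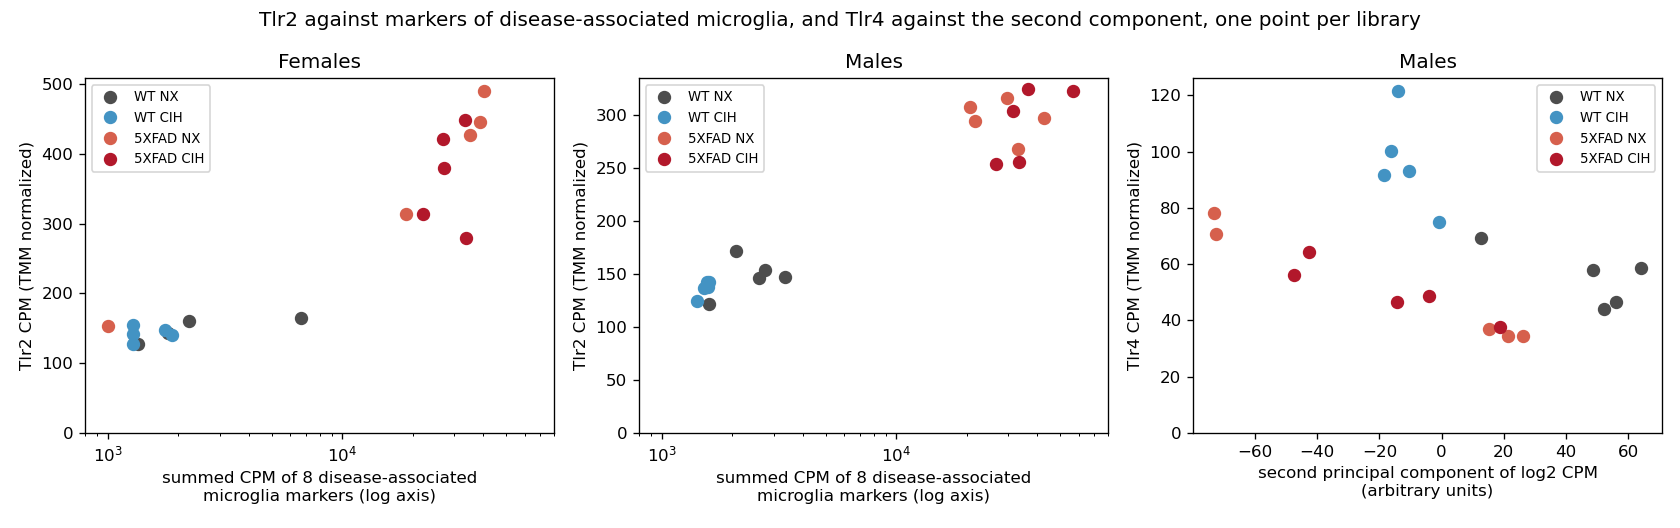
Tlr2 CPM against the summed CPM of 8 DAM markers in female and male libraries (log horizontal axis), and Tlr4 CPM against the second principal component in male libraries, with 1 point per library. The female 5XFAD NX library with a DAM sum of 1001 CPM had the Tlr2 level of WT libraries (153 CPM), and the 2 male 5XFAD NX libraries at the left of the third panel had the highest Tlr4 levels of their group.

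The members were set beside markers of cell states and of other cell types that the isolate could hold. The DAM markers were, like Tlr2, higher in the 5XFAD than in the WT groups. Their sum was 1276 to 6694 CPM in the WT groups of females and 1416 to 3362 CPM in those of males, and 18740 to 56452 CPM in the 5XFAD libraries of both sexes other than female 5XFAD NX 4. That library had a Tlr2 level of 153 CPM, inside the WT NX range of 127 to 165 CPM. Within 5XFAD NX females the DAM sum and Tlr2 had the same order of libraries, but in other groups they did not. In 5XFAD CIH females, library 1 had the highest DAM sum (33561 CPM) and the lowest Tlr2 level (280 CPM). In 5XFAD NX males, library 5 had the lowest DAM sum (20542 CPM) with 308 CPM of Tlr2. Summed microglial markers were lower in 5XFAD, with 16679 to 19319.8 CPM against 23677 to 27485 CPM in females and 15676 to 18872 CPM against 21601 to 28462 CPM in males. In bulk libraries, fewer cells of a type and less RNA per cell cannot be told apart.

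Some markers of other cell types also differed between the genotypes, with border macrophage markers lower in 5XFAD. The marker counts below are by the FDR alone. The share of all genes that passed it was 13.9% in NX females, 51.9% in CIH females, 17.8% in NX males and 49.0% in CIH males. Under CIH, several of the counts lay near or under these shares. Of the 7 border macrophage markers (Mrc1, Lyve1, Cd163, Pf4, F13a1, Cbr2 and Ms4a7), 6 fell in each female genotype comparison, 5 in NX males and 3 in CIH males, and all 7 were detected in every group. Their sum was 143.6 to 336 CPM in WT and 69.3 to 161 CPM in 5XFAD females, and 147.6 to 327 CPM in WT and 100.4 to 187 CPM in 5XFAD males. Of 5 dendritic cell markers, 1 or 2 fell in each and 1 rose in each CIH comparison, and their sum was 23.0 to 49.5 CPM in WT and 12.5 to 25.5 CPM in 5XFAD. Monocyte markers summed to 38.3 to 493 CPM over all libraries, and of the 6 markers 1 or 2 fell in each genotype comparison and 1 rose in each CIH comparison. B cell markers summed to 17.5 to 21.7 CPM in WT and 7.24 to 20.1 CPM in 5XFAD females, where NX 4 was the highest, and to 18.1 to 40.3 CPM in WT and 7.75 to 29.6 CPM in 5XFAD males. Of 5 B cell markers 1 to 3 could be tested, and 1 fell in CIH females and 1 in NX males. Of 6 endothelial markers, 1 rose and 1 fell in each genotype comparison, and their sum was 46.2 to 136.7 CPM in WT and 51.8 to 282 CPM in 5XFAD females, where NX 4 was the lowest, and 52.1 to 192 CPM in WT and 106.8 to 219.6 CPM in 5XFAD males. Of 6 neuronal markers, 1 fell in CIH females and 1 in NX males. T and NK cell markers summed to 0.71 to 12.5 CPM, and 1 to 3 of them rose in each genotype comparison. Of 8 neutrophil markers, 3 fell in CIH females and 3 in CIH males, with none higher. Their sum stood apart in female 5XFAD NX 4 (245 CPM, against 10.3 to 61.4 CPM in the rest of its group). It did so too in female WT NX 1 (222 against 41.6 to 74.5 CPM) and male 5XFAD NX 2 (1263 against 69.7 to 349 CPM). Astrocyte markers summed to 352 to 950.3 CPM in 5XFAD NX males against 130.4 to 174 CPM in WT NX males, and of the 6 markers 1 to 3 rose and 1 or 2 fell in each genotype comparison. Of 5 oligodendrocyte markers, 1 fell in NX females, 1 rose and 1 fell in CIH females, and 2 rose in NX males and 2 in CIH males. The part of any of these cells in the differences of the Toll-like receptors was not tested.

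The genes that work with the receptors were taken from lists of ligand delivery, trafficking, adaptors, kinases, transcription factors, negative regulators and outputs. Of 8 genes of ligand delivery and co-receptors, 1 rose in NX females, 4 rose and 2 fell in CIH females, 2 rose and 1 fell in NX males, and 5 rose and 1 fell in CIH males by the FDR alone. The shares of all genes past the FDR in these comparisons were 13.9%, 51.9%, 17.8% and 49.0%. Clec7a, a β-glucan receptor that acts together with Tlr2, had 25.7 to 109.6 CPM in the 4 WT NX females and rose by 3.32 (NX) and 4.31 (CIH) on the log2 scale in 5XFAD females and by 4.16 and 4.66 in males. The NX female call of Clec7a held in 2 of 9 fits without 1 library (without WT NX 1 or 5XFAD NX 4), with an FDR of up to 0.0796 in the others. Clec7a is also a DAM marker. Cd14, the co-receptor that passes lipopolysaccharide to Tlr4, rose in CIH females (log2FC = 0.84, FDR = 0.000166), NX males (0.54, FDR = 0.0403) and CIH males (1.08, FDR = 3.17e-07), and fell with CIH in WT males (−0.37, FDR = 0.00208). With the length trend removed, that last value of Cd14 was −0.05 (FDR = 0.679), and with all 4 groups in one fit its FDR was 0.0867. The NX male call of Cd14 held in 2 of 10 fits without 1 library (without 5XFAD NX 4 or 5), and the FDR was 0.0672 to 0.101 in the other 8. Ly96, the partner of Tlr4, was low (6.82 to 24.8 CPM over all libraries), fell in CIH females (−0.36, FDR = 0.0313) and rose in CIH males (0.40, FDR = 0.0451), the latter a direction that turned with the length trend removed (−0.18). The CIH male call of Ly96 held in 4 of 10 fits without 1 library, and the CIH female call in 6 of 10.

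Among adaptor and trafficking genes, no DEG was found in the 4 genotype comparisons. Myd88, the adaptor of most Toll-like receptors, fell in 5XFAD females under NX (log2FC = −0.48, FDR = 0.0162) and CIH (−0.56, FDR = 4.65e-06), and in males had −0.50 (FDR = 0.0852) and −0.22 (FDR = 0.0771). Unc93b1, which carries the endosomal receptors, fell in the same female comparisons (−0.38, FDR = 0.0498, and −0.53, FDR = 2.93e-06) and had −0.45 (FDR = 0.0732) and −0.19 (FDR = 0.145) in males. Of the 9 NX female fits without 1 library, Unc93b1 passed in 1 (without 5XFAD NX 4) and Myd88 in 6. Of the 6 adaptors, 3 fell in CIH females with none higher, and 3 fell and 1 rose in CIH males. Of the 15 proximal kinases and ligases, 6 fell and 2 rose in CIH females, and 9 fell and 2 rose in CIH males, where 25.7% of all genes were lower by the FDR alone in females and 23.7% in males. Of the 6 folding and trafficking genes, 1 rose and 2 fell in CIH females and 2 rose in CIH males, and of the 8 negative regulators 2 rose and 1 fell in CIH females and 1 rose in CIH males. Ikbke, a kinase that activates interferon regulatory factors, was among those that rose in CIH females (1.88, FDR = 0.000646), NX males (2.71, FDR = 0.00567) and CIH males (1.08, FDR = 0.0197). In NX females Ikbke did not pass (0.47, FDR = 0.643), but did in 1 of 9 fits without 1 library (FDR = 0.0398).

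In WT males with CIH, 6 of the 15 kinases and ligases rose and 1 fell, while 4 of the 8 ligand-delivery genes fell and none rose by the FDR alone, which 28.6% of all genes passed. Of the 6 folding and trafficking genes 3 fell and 1 rose, and of the 9 transcription factors 3 fell and 1 rose. Of the 7 outputs tested, 2 fell and none rose, Il1b (log2FC = −0.66, FDR = 0.0484, just under the limit) and Cxcl10 (−1.21, FDR = 0.0156). In the same comparison, 1 adaptor and 1 negative regulator rose. Tlr11 and Tlr12, the remaining mouse members of the family, were measured as well. Tlr11 was at 0.149 to 1.83 CPM and passed in none of the comparisons, and Tlr12 had 70.2 to 114.8 CPM and was lower in 5XFAD CIH females (log2FC = −0.24, FDR = 0.00712).

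Among the 9 transcription factors and 11 outputs downstream, genes in both directions passed. Irf7, which drives interferon genes after endosomal receptor signaling, rose by 1.57 (FDR = 0.0309) in NX females, 1.44 (FDR = 0.00119) in CIH females, 1.36 (FDR = 0.00647) in NX males and 1.95 (FDR = 6.85e-06) in CIH males on the log2 scale. The NX female call of Irf7 held in 2 of 9 fits without 1 library (without WT NX 1 or 5XFAD NX 4). Of the other 8 factors, 3 rose and 3 fell in CIH females by the FDR, which 51.9% of all genes passed. Of 11 output cytokines and enzymes, 7 could be tested in each genotype comparison, and 5 of them were DEGs upward under CIH in both sexes, where 13% of all genes in females and 18.7% in males were DEGs in either direction. The chemokines Ccl3 and Ccl4 rose in all 4 comparisons, by 2.10 to 3.35 and 1.92 to 2.93 on the log2 scale. In the 9 NX female fits without 1 library, Ccl3 passed in 6 (FDR up to 0.0656) and Ccl4 in 3 (FDR up to 0.0709). Tnf and Il1b rose under CIH in females (1.62, FDR = 0.00241, and 1.44, FDR = 0.00123) and in males (1.57, FDR = 0.0113, and 1.13, FDR = 0.00173), and did not pass under NX. The NX values were 1.35 (FDR = 0.085) and 0.62 (FDR = 0.499) in females and −0.08 (FDR = 0.868) and −0.16 (FDR = 0.798) in males. Tnf passed in NX females in 3 of 10 alternative settings, among them DESeq2 (FDR = 0.017). Of the 9 NX female fits without 1 library, Tnf passed in 1 (FDR = 0.0263) and Il1b in 1 (FDR = 0.0414). In these fits the log2FC was 0.84 to 1.68 for Tnf and 0.28 to 1.77 for Il1b. Il6, named after its values were seen, fell in all 4 comparisons, by 0.96 to 1.31. The NX and CIH comparisons of genotype were not tested against each other for these genes beyond the interaction, which none of them passed in edgeR as described. In males, the interaction passed with DESeq2 for Tnf (FDR = 0.0409) and Il1b (FDR = 0.0383), and with no filter on low counts for Tnf (FDR = 0.000132), Il1b (FDR = 0.000453) and Ccl3 (FDR = 0.0306).

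The genes whose levels were most like those of a member were found by Pearson's r of log2 CPM over the 19 female and the 20 male libraries, taking the lower of both values among 13442 genes. The libraries are shared by all genes compared and fall into WT and 5XFAD groups, so these values describe a pattern and carry no test. Tlr2 was closest to Hif1a, which encodes the oxygen-regulated transcription factor subunit HIF-1α (r = 0.977 and 0.975 in females and males), and to Arhgap24 (0.974 and 0.972). Tlr5 was closest to Tgfbrap1 (0.966 and 0.963) and Srgap2 (0.952 and 0.953). For Tlr6 the closest were 2010315B03Rik (0.935 and 0.924) and Sh2b3 (0.915 and 0.933), and for Tlr4 the closest was AI987944 (0.927 and 0.914). Tlr3 was closest to Irgm2, an interferon-inducible GTPase (0.913 and 0.909), and Capza2 (0.885 and 0.895), and Tlr7 to Hipk1 (0.906 and 0.898) and Gnaq (0.910 and 0.898). The remaining members had weaker matches, of which Tlr9 with Epb41l2 (0.841 and 0.869) and Slc8a1 (0.857 and 0.840), Tlr8 with Epc2 (0.815 and 0.811) and Lbr (0.802 and 0.856), Tlr1 with Cd180 (0.772 and 0.711) and Galnt11 (0.722 and 0.702), and Tlr13 with Dock2 (0.729 and 0.780) and Il6st (0.812 and 0.723).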

How the data were processed

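CD11b+ cells were sequenced as 39 paired-end mRNA libraries. Read counts and FPKM per gene were deposited by the authors as 1 table for females and 1 for males. HISAT2 is named in the submitters' processing notes, and the counter is not given in the sources used here. The deposited FPKM of males carried an additional factor per library. FPKM served only for limma as an alternative.

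Counts were tested within each sex with edgeR 4.0.16 (R 4.3.3): TMM scaling, a filter that kept genes where 3 or more compared samples exceeded 1 CPM, quasi-likelihood F test and Benjamini-Hochberg adjustment over all genes tested (FDR). A DEG had an FDR below 0.05 and an absolute log2FC above 1. DESeq2 1.42.0 and limma 3.58.1 were alternatives, with leave-one-out fits, other filters and scalings. P-values weigh a group difference, or the interaction, against the spread between libraries. The members and lists were chosen with earlier results of these data known. Pathway genes were named where they were DEGs in both sexes, or were Myd88, Cd14, Unc93b1 or Ly96. Il6, Cxcl10, Tlr11 and Tlr12 were named outside this rule. For likeness, the 2 closest genes were named, except where an item is not reported here. The microglial and oligodendrocyte lists were shortened for the same reason after their values were seen.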

Additional observations from a re-analysis of the deposited data

Results flagged for a closer look

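In 5 of the 80 combinations of a member and a group, 1 library lay far from the others by Dixon's criterion, which chance gives in about 1 in 20 groups. Tlr5 was 30.0 CPM in female 5XFAD NX 4, against 15.2 to 18.1 CPM in the other 4 libraries. Tlr3 was 115.9 CPM in female WT NX 1, against 126 to 128 CPM. Tlr8 was 7.61 CPM in female 5XFAD NX 3, against 2.84 to 3.82 CPM. Tlr5 was 2.76 CPM in male 5XFAD CIH 5, against 6.14 to 7.52 CPM. Tlr7 was 222 CPM in male WT NX 5, against 251 to 261 CPM.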

How the results depend on the processing

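Of 2176 values of single members under other settings, 1971 kept their direction and their side of the threshold, 128 changed sign without a call in either fit, 35 passed it newly, 39 no longer passed and 3 turned. The number of Toll-like receptor DEGs in NX females was 3, and 0 with the replicate number as a block. The deviations of same-numbered libraries from their group means had r of −0.06 to 0.18 in that comparison. Over all comparisons between groups, r was −0.49 to 0.35. With so few pairs, these values cannot decide whether the numbers pair the samples. Leaving out 1 library gave 0 to 3 there and 0 to 2 in NX males. In NX males the count was 1, and 2 with DESeq2, the likelihood ratio test, all 4 groups in one fit, limma on log2(FPKM + 0.1) and the length trend removed, 0 with limma on log2(FPKM + 1), and 3 without 5XFAD NX 4 and 5. In CIH males it was 3, and 5 with library size alone (Tlr3, Tlr4, Tlr5, Tlr8 and Tlr9), where Tlr2 was no longer a DEG (log2FC = 0.741). By the FDR alone, 4 members passed in NX females, 5 with DESeq2, all 4 groups in one fit or the length trend removed, 0 with the replicate block, and 0 to 7 without 1 library (7 without 5XFAD NX 4). In CIH females 7 passed, and 6 to 8 under all other settings. In NX males 3 passed, 2 with the replicate block, 3 or 4 under the other settings on all libraries, 2 to 4 without 1 library, and 7 without 5XFAD NX 4 and 5. In CIH males 7 passed, and 6 to 8 under all other settings. In WT males with CIH 2 passed, 0 with all 4 groups and 3 with no filter on low counts. Tlr7 in CIH females turned to −0.00734 with library size alone and to −0.00675 and −0.00681 with limma. Ly96 in CIH males turned to −0.179 with the length trend removed. The cause was not tested. Tlr8 had 0 to 136 counts per library in males, which limits its precision.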
